A study of Mus musculus with 12 samples.

Results

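The probes of the mouse lincRNA catalogues on the array were examined in left ventricle (LV). They are the non-control probes whose names begin with mouselincRNA (649 probes) or MM9LINCRNAEXON (83 probes), 732 of the 60915 probes on each array. The names give 403 catalogue entries, 332 in the first catalogue and 71 in the second, and the sign that follows the entry number gives the strand. Of these entries, 329 had a probe on each strand and 74 had a probe on 1 strand. All members carried the suffix _P1, which is left out here. The 58141 probes whose names begin with ASMM10P served as the background on the same arrays.

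LV RNA came from 12 C57BL/6J mice, 3 in each of 4 groups and 1 array per mouse. All 12 mice carried a transgene, expressed in cardiomyocytes, for a mutant β1-adrenergic receptor that lacks the phosphorylation sites of G protein-coupled receptor kinases (GRK−β1AR). TG mice carried this transgene alone, and double transgenic (DTG) mice also carried a miR-150 transgene driven by the CAG promoter, which is active in most cell types. Each genotype received isoproterenol (ISO), a β-adrenergic agonist, or vehicle for 1 week, and the groups are named TG or DTG with vehicle or ISO. Ages were 9 to 12 weeks, and each group held 1 female. All groups carried the mutant receptor, so no comparison was made with a nontransgenic heart.

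Long intergenic noncoding RNAs (lincRNAs) are transcripts that are spliced and polyadenylated like mRNAs, arise between protein-coding genes and have little coding potential. As a class they are less abundant and more restricted to single tissues than mRNAs, and some regulate chromatin, transcription or the availability of microRNAs. In the heart, individual lncRNAs are known to act in development, hypertrophy and cell survival. A catalogue entry is a region in which such a transcript was annotated or predicted, and a pair of probes on opposite strands asks from which strand the RNA of that region comes. The array files name the members by entry number and strand, without gene names, coordinates or probe sequences, so members are given by their catalogue names, and the roles and positions of the individual entries are not described. The ASMM10P probes carry numbers only, and the tissue, the mutant receptor and miR-150 were not checked against their own probes.

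The 12 arrays were read in 3 scans. Scan 1 covered DTG vehicle 3 and all 3 arrays of DTG ISO, scan 2 replicates 1 and 2 of TG vehicle, TG ISO and DTG vehicle, and scan 3 TG vehicle 3 and TG ISO 3. Over the 112 members that were well above background on all 12 arrays, some arrays correlated better with another group than with their own. TG vehicle 3 had a mean Pearson correlation of 0.909 with replicates 1 and 2 of TG vehicle and 0.969 with replicates 1 and 2 of TG ISO. TG ISO 3 had 0.935 with TG ISO 1 and 2 and 0.979 with TG vehicle 1 and 2, and DTG vehicle 3 had 0.937 with its own group and 0.975 with the DTG ISO arrays. TG vehicle 3 and TG ISO 3, which were read in the same scan, thus went against their labels in this measure, each toward the other group. Whether their labels were exchanged was not tested, and every comparison that uses a TG group rests on 1 or both of them as labelled. Counts from the limma fits and medians over the 112 members are therefore also given without such arrays, whereas counts of members without overlap and of detection by group are given with all arrays only. None of the 15 negative control probes was well above background on 9 arrays, whereas 13.3% were on DTG vehicle 3, 6.67% on DTG ISO 2 and 13.3% on DTG ISO 3, which all belong to scan 1.

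The lincRNA catalogues were detected much less often than the background in every ventricle. A probe counted as detected where the scanner software marked its spot as well above background. In TG vehicle, 18.6%, 29.8% and 27.2% of the members were detected on replicates 1 to 3, and in TG ISO 26.0%, 28.6% and 20.5%. In DTG vehicle the shares were 24.0%, 31.7% and 38.7%, and in DTG ISO 33.7%, 40.2% and 51.8%. The 4 arrays of scan 1 gave the 4 highest shares, including the DTG vehicle array that was read with them. The ASMM10P probes were detected at 54.6% to 80.8%.

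**Figure D1:**
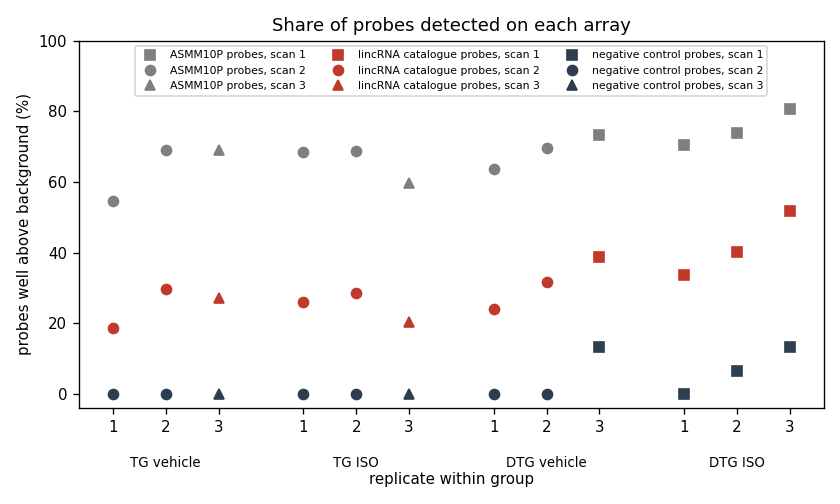
Share of probes marked well above background (vertical axis, percent) on each of the 12 arrays (horizontal axis, replicates by group), for ASMM10P probes, lincRNA catalogue probes and negative control probes, with the marker shape giving the scan. The lincRNA catalogue probes lie between 18.6% and 51.8%, below the ASMM10P probes on all 12 arrays, and the 4 squares of scan 1 are the highest.

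The share of members detected was lower than that of ASMM10P probes on 12 of 12 arrays, by 37.6 percentage points on average ± 3.85 (SD of the differences, n = 12; exact sign-change permutation test, two-sided p = 0.000488, the smallest the test can give). The difference, members minus ASMM10P probes, ranged from -42.6 to -29.0 points. The array also carried 1104 probes whose names begin with humanlincRNA. These were detected at 14.6% to 45.6% in the mouse ventricles, and the members exceeded them by 2.19 to 6.21 percentage points on the 12 arrays. Detection of the mouse catalogue was thus far nearer to that of the probes named for human lincRNAs than to that of the ASMM10P probes.

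The signal of the members lay near the bottom of the scale. Levels are given as the log2 of the processed signal relative to the array's 75th percentile, so that 0 is the 75th percentile. The median level of the 732 members was between -6.92 and -5.41 on the 12 arrays, and that of the ASMM10P probes between -2.77 and -2.53. The median of the members was 3.51 lower on the log2 scale ± 0.48 (SD of the differences, n = 12), lower on 12 of 12 arrays (exact sign-change permutation test, two-sided p = 0.000488). Probes differ in how strongly they hybridize, so this is a difference in signal and not in the number of RNA molecules. Against the negative control probes, the median of the members was higher by 0.03 to 0.76 on the 8 arrays of scans 2 and 3 and by 1.1 to 2.33 on the 4 arrays of scan 1.

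Most members were either detected in no ventricle or in a few of them, and a minority in all. Of the 732 members, 287 (39.2%) were detected on 0 arrays, 155 (21.2%) on 1 or 2 arrays, 178 (24.3%) on 3 to 11 arrays and 112 (15.3%) on all 12. Among the ASMM10P probes, 15.1% were detected on 0 arrays and 52.5% on all 12. The members detected on a single array also numbered 112, and 56 of them were detected on DTG ISO 3, against 0 to 10 on each of the other 11 arrays. Without DTG ISO 3, the number detected on 0 arrays rose to 343 and the number detected on every remaining array stayed at 112.

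**Figure D2:**
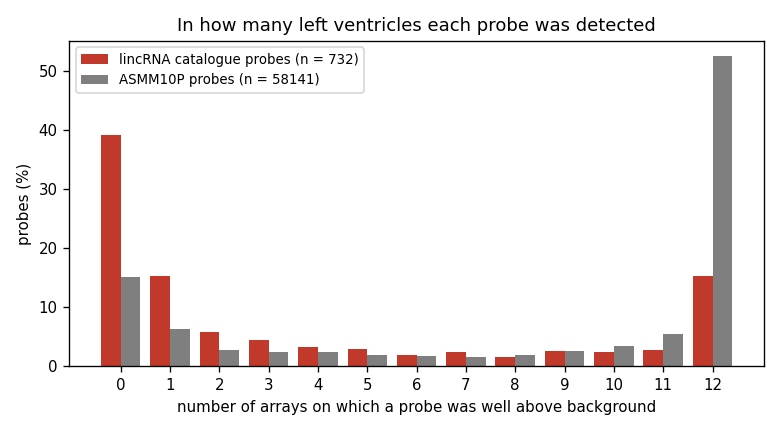
Percent of probes (vertical axis) by the number of arrays on which the probe was well above background (horizontal axis), for the 732 lincRNA catalogue probes and the 58141 ASMM10P probes. The catalogue probes peak at 0 arrays (39.2%), and the ASMM10P probes peak at 12 arrays (52.5%).

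The catalogues and strands differed within the members. The MM9LINCRNAEXON probes were detected at 44.8% on average and the mouselincRNA probes at 29.1%, a difference in the same direction on 12 of 12 arrays (exact sign-change permutation test, two-sided p = 0.000488). Of the 83 MM9LINCRNAEXON probes 23 (27.7%) were detected on all 12 arrays, and of the 649 mouselincRNA probes 89 (13.7%). Probes of the minus strand were detected at 33.1% and probes of the plus strand at 28.8%, also on 12 of 12 arrays (exact p = 0.000488). The 12 arrays carry the same probes, so these tests hold for these probes and do not extend to other probes of either catalogue.

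The detection share was highest in DTG ISO, and 3 arrays against 3 could not reach a p under 0.05 for a difference of any size. It averaged 25.2% ± 5.86 (SD, n = 3) in TG vehicle, 25.0% ± 4.11 in TG ISO, 31.5% ± 7.31 in DTG vehicle and 41.9% ± 9.14 in DTG ISO. DTG ISO exceeded TG ISO by 16.9 percentage points with no overlap between the arrays (exact permutation test, two-sided p = 0.1, the smallest that 3 arrays against 3 allow; 0.4 after Benjamini-Hochberg adjustment over the 4 comparisons). The exact permutation p was 0.2 for DTG ISO against DTG vehicle (10.4 points), 0.4 for DTG vehicle against TG vehicle (6.28 points) and 1 for TG ISO against TG vehicle (-0.18 points). Other probe classes were also detected more often in DTG ISO than in TG ISO. The humanlincRNA probes averaged 36.7% and 21.9%, and the probes named ASMM10UP 48.1% and 35.9%. Relative to the ASMM10P probes, the differences of the members were 7.67, 4.32, 1.63 and -1.72 points in the order above. The exact permutation p was then 0.1, 0.2, 0.5 and 0.4. The higher share in DTG ISO was thus not particular to the mouse catalogue. Within scan 1, DTG vehicle 3 at 38.7% lay between the DTG ISO arrays at 33.7% and 51.8%. Within scan 2, the shares were 18.6% and 29.8% in TG vehicle, 26.0% and 28.6% in TG ISO and 24.0% and 31.7% in DTG vehicle, so the groups overlapped within both scans. Leaving out DTG vehicle 3 lowered the difference between DTG vehicle and TG vehicle to 2.69 points, and leaving out DTG ISO 3 lowered that between DTG ISO and DTG vehicle to 5.49 points. No scan held both TG ISO and DTG ISO arrays, so for that comparison scan and group cannot be told apart from the shares alone. The median level of the members averaged -6.26 ± 0.77 (SD, n = 3) in TG vehicle, -6.52 ± 0.41 in TG ISO, -6.16 ± 0.37 in DTG vehicle and -5.71 ± 0.18 in DTG ISO. The exact permutation p was 0.1 for DTG ISO against TG ISO (0.4 after adjustment over the 4 comparisons), and 0.3, 0.8 and 0.7 for DTG ISO against DTG vehicle, DTG vehicle against TG vehicle and TG ISO against TG vehicle. In tissue RNA, fewer cells of a type and less RNA per cell cannot be told apart.

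A few entries gave a strong signal in all 12 ventricles. The 8 brightest members among those detected on all 12 arrays had mean levels from 2.91 to 7.72, and 99.5% of the ASMM10P probes had a lower mean signal than the brightest, mouselincRNA0161-. Its level was 7.84, 7.42 and 7.47 in TG vehicle, 6.93, 7.45 and 7.70 in TG ISO, 7.69, 7.47 and 8.14 in DTG vehicle, and 8.34, 8.36 and 7.87 in DTG ISO. The DTG ISO arrays lay above the TG arrays, DTG ISO 3 by little, and overlapped with DTG vehicle. The second brightest, MM9LINCRNAEXON10664+, measured 7.37, 6.67 and 6.67 in TG vehicle, 7.46, 7.49 and 7.24 in TG ISO, 7.31, 6.71 and 7.66 in DTG vehicle, and 7.64, 7.72 and 6.83 in DTG ISO. Its whole range over the 12 arrays was 1.05, with all groups overlapping.

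The next of these members were mouselincRNA1606-, with a mean of 5.61, mouselincRNA0772- with 4.70, mouselincRNA1437+ with 4.68 and mouselincRNA1235- with 3.83. The last of the 8 were mouselincRNA0706+ with 3.57 and mouselincRNA0735+ with 2.91. Among them mouselincRNA0772- had a range of 1.47 over the arrays and mouselincRNA0706+ one of 1.56, whereas mouselincRNA0735+ spanned 3.08 and mouselincRNA1606- 5.96. The last had the largest range of all 112 members detected on every array. It measured 5.66, 4.92 and 5.19 in TG vehicle, 5.17, 6.41 and 6.21 in TG ISO, 6.31, 1.95 and 6.16 in DTG vehicle, and 7.90, 6.56 and 4.92 in DTG ISO. A single array, DTG vehicle 2, lay far below the other 11, and the groups overlapped.

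Most entries with a strand detected in every ventricle had only 1 strand detected so. Of the 329 entries with a probe on each strand, 78 had exactly 1 strand detected on all 12 arrays, 47 the minus and 31 the plus strand, and 9 had both. In 40 of the 78, the opposite strand was detected on 0 of 12 arrays, in 17 on 1 or 2 arrays, and in 21 on 3 to 11. In 242 entries neither strand was detected on all arrays, and in 42 of them neither was detected on any. In 50 of the 329 entries, both strands were detected on 3 or more arrays. Detection on all 12 arrays was rare on either strand, at 13.2% of the plus and 17.5% of the minus probes. Few entries would thus have both strands even if each was detected independently, and the counts alone do not show transcription from 1 strand. Over the 329 entries, the mean levels of the plus and minus probes had a correlation of 0.06. These counts rest on the array's labels for the strands and on detection by different probes.

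**Figure D3:**
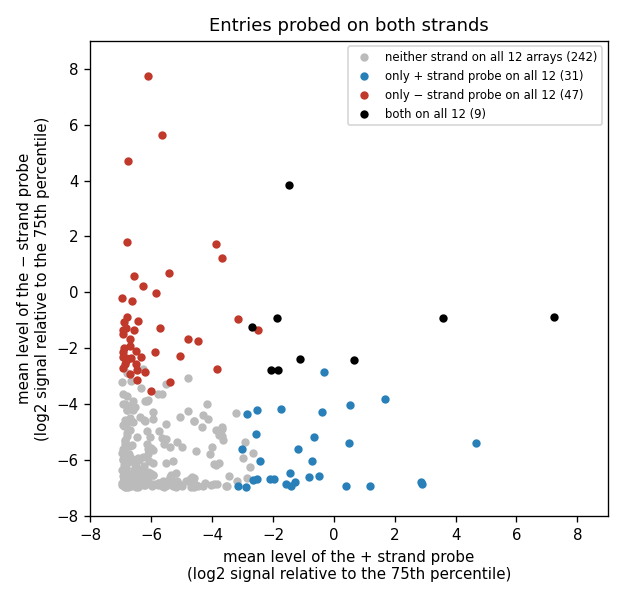
Mean level over 12 arrays of the plus strand probe (horizontal axis) and of the minus strand probe (vertical axis) for the 329 catalogue entries with a probe on each strand, as log2 signal relative to the array's 75th percentile. The colours give detection, with 31 entries detected on all arrays by the plus probe alone, 47 by the minus probe alone, 9 by both and 242 by neither.

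The brightest minus strand entries were examples of detection on 1 strand. In mouselincRNA0161, mouselincRNA0772 and mouselincRNA1606 the minus probe was detected on all 12 arrays, and the plus probe was detected on 2, 0 and 2 arrays.

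The 9 entries with both strands detected on all arrays were MM9LINCRNAEXON10664, MM9LINCRNAEXON11712, mouselincRNA0413, mouselincRNA0522, mouselincRNA0538, mouselincRNA0706, mouselincRNA0939, mouselincRNA1235 and mouselincRNA1512. This set, named after its values were seen, held 3 of the 8 brightest probes. Over the 12 arrays, the Pearson correlation between the strands of an entry ranged from -0.63 in mouselincRNA1235 to 0.74 in mouselincRNA0538, with a median of 0.15 and 3 entries below 0. Both strands share the RNA sample and the array. Besides mouselincRNA0538, the correlation was 0.45 in mouselincRNA0413, 0.59 in mouselincRNA0939 and 0.69 in mouselincRNA0522. The plus and minus probes thus followed each other across the ventricles in some entries and not in others. In mouselincRNA1235, the minus probe varied from 2.84 to 4.94 whereas the plus probe, among the 3 steadiest of the members, varied from -1.72 to -1.05.

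The steadiest members were mouselincRNA0768+, mouselincRNA0706- and mouselincRNA1235+, with ranges of 0.60, 0.62 and 0.67 over the 12 arrays. Their mean levels were -1.72, -0.93 and -1.47. All 3 are partners of strand pairs, and the groups overlapped in each. The widest ranges after mouselincRNA1606- were those of MM9LINCRNAEXON11125+ (4.51) and mouselincRNA0543- (4.23). MM9LINCRNAEXON11125+ measured 0.80, -1.53 and 0.16 in TG vehicle, 0.77, -0.21 and -1.0 in TG ISO, 0.64, -0.99 and 2.95 in DTG vehicle, and 2.98, 2.11 and 2.64 in DTG ISO. The 4 arrays of scan 1 were its highest, DTG vehicle 3 among them, and no array of the other scans came above 0.80. In mouselincRNA0543- the values ran from -0.58 to 3.65 without a separation of the groups.

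**Figure D4:**
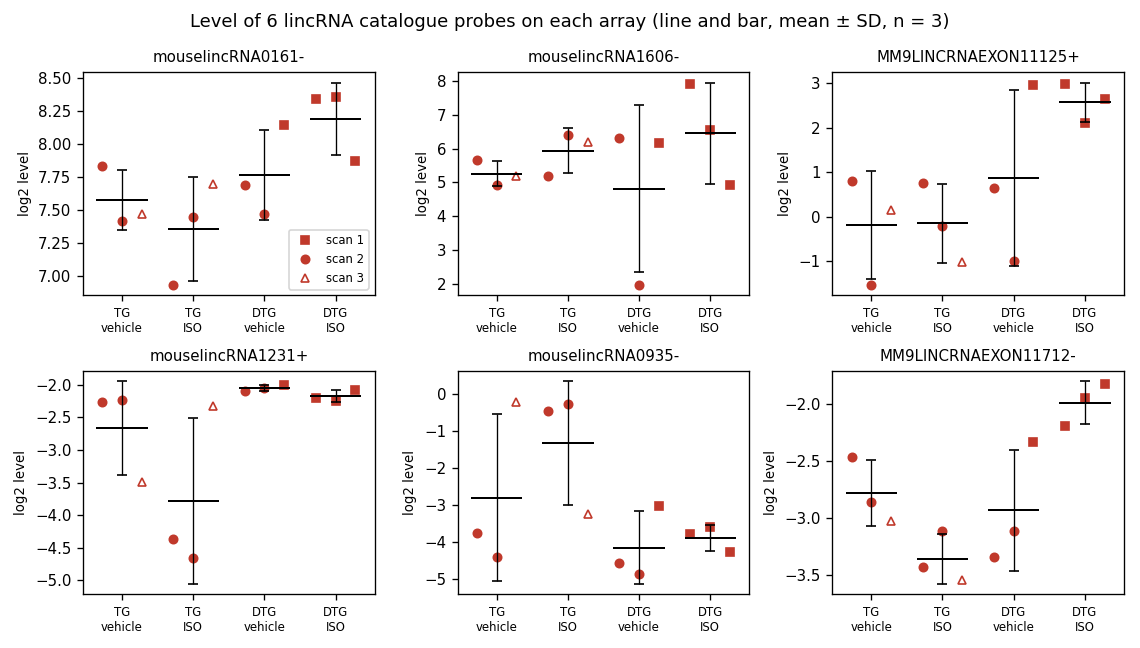
Level on each array (vertical axes, log2 signal relative to the array's 75th percentile) of 6 lincRNA catalogue probes by group (horizontal axes), with the marker giving the scan and the line and bar the group mean ± SD (n = 3). MM9LINCRNAEXON11125+ is between 2.11 and 2.98 in scan 1 and at most 0.80 elsewhere, and mouselincRNA1231+ and mouselincRNA0935- set TG ISO 1, TG ISO 2 and TG vehicle 3 apart from the other 9 arrays.

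Differences between groups were tested with limma on the probes detected on 3 or more arrays, 290 of the 732 members, with adjustment over all probes tested. A member could pass this filter through 1 group, so the 112 members detected on all 12 arrays are described beside them. No member had an adjusted p under 0.05 in any of the 5 comparisons. Some counts under alternatives have no share of all probes beside them. Such a count shows how far a result moved, and not whether the members moved more than the whole array. For DTG ISO against TG ISO, all tested probes had a median change of 0.12 on the log2 scale, and in the other comparisons their median was between -0.01 and 0.05.

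With all 6 TG arrays, no lincRNA catalogue probe passed the test for a change with ISO in TG hearts. By limma, 0 members had an adjusted p under 0.05 (0% of all probes), and 5 of 290 had an unadjusted p under 0.05, all 5 higher in TG ISO, beside 1.83% of all probes (0.986% higher and 0.846% lower). The count of 5 became 32, with 25 lower, without TG vehicle 3, 17 without TG ISO 3, 12 and 9 without TG vehicle 1 and 2, and 13 and 3 without TG ISO 1 and 2. Among the 112 members detected on all arrays, 60 were higher in TG ISO, with a median change of 0.02 that became -0.04 under normexp background correction, and the ASMM10P probes of that kind had a median of -0.02. The direction of this median turned with single arrays. It was -0.18 without TG vehicle 3, -0.04 without TG ISO 3, 0.17 without TG vehicle 1, 0.06 without TG vehicle 2, and 0.04 without either TG ISO 1 or TG ISO 2. Within scan 2 it was -0.24, with 34 of 112 higher, and between the 2 arrays of scan 3 it was 0.64. The groups' arrays did not overlap in 6 of the 288 tested members with a value on every array (2.08%, beside 4.54% of all probes).

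The 5 members with an unadjusted p under 0.05, named after their values were seen, were MM9LINCRNAEXON11569+, mouselincRNA1312+, mouselincRNA0263+, mouselincRNA0133- and mouselincRNA0753+. Among the members detected on all 3 arrays of a TG group and without overlap between the groups, mouselincRNA0413- had the smallest p of those higher in TG ISO and MM9LINCRNAEXON11712- of those lower. mouselincRNA0413- measured -1.53, -2.27 and -2.34 in TG vehicle and -1.29, -0.46 and -1.15 in TG ISO. The ISO arrays were all above the vehicle arrays, by 1.08 on the log2 scale on average (SE 0.55, limma adjusted p = 0.999). MM9LINCRNAEXON11712- measured -2.46, -2.86 and -3.02 in TG vehicle and -3.42, -3.12 and -3.54 in TG ISO, a change of -0.58 (SE 0.28, limma adjusted p = 0.999). Neither passed the test, with all arrays or without TG vehicle 3 and TG ISO 3, where the changes were 1.03 and -0.61 (limma adjusted p = 0.364 and 0.249).

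Without TG vehicle 3 and TG ISO 3, which form scan 3, the same comparison gave calls. This alternative was chosen after the data were seen. With the 2 arrays of each TG group that remained, 28 of 290 members (9.66%) had an adjusted p under 0.05 in limma, 10 higher and 18 lower in TG ISO. Beside them stood 17.1% of all probes, 9.32% higher and 7.78% lower. Among the 112 members detected on all arrays, 13 (11.6%) passed, 4 higher and 9 lower. Fitted to scan 2 alone, 20 members (6.9%) passed, beside 11.5% of all probes. The share among the members was thus below that of all probes in both fits. The members with the smallest p, named after their values were seen, were mouselincRNA1231+ and mouselincRNA1379-, lower in TG ISO, and mouselincRNA0453+ and mouselincRNA0935-, higher.

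On the arrays of scan 3, these 4 members were nearer to the level of the opposite label. mouselincRNA1231+ measured -2.27, -2.24 and -3.50 in TG vehicle, -4.37, -4.66 and -2.33 in TG ISO, -2.10, -2.05 and -2.01 in DTG vehicle, and -2.21, -2.25 and -2.08 in DTG ISO. TG vehicle 3 was below the other vehicle arrays, TG ISO 3 was beside them, and the 6 DTG arrays lay between -2.25 and -2.01. Without scan 3 its change with ISO was -2.26 in TG (SE 0.18, limma adjusted p = 0.000254). The probe was well above background on 1 of the 2 TG ISO arrays, so the size of this change is uncertain. mouselincRNA0935- measured -3.78, -4.42 and -0.23 in TG vehicle, -0.48, -0.27 and -3.27 in TG ISO, -4.59, -4.86 and -3.03 in DTG vehicle, and -3.80, -3.60 and -4.28 in DTG ISO. Its level on TG vehicle 3 was that of TG ISO 1 and 2, and its level on TG ISO 3 was near that of the vehicle arrays. Without scan 3 it was higher by 3.73 in TG ISO (SE 0.54, limma adjusted p = 0.00295), with the probe well above background on 1 of the 2 TG vehicle arrays, so the size of this difference is uncertain. mouselincRNA1379- fell by 1.68 and mouselincRNA0453+ rose by 1.94, with adjusted p of 0.00143 and 0.00269 in that limma fit. In these 4 members, TG vehicle 3 and TG ISO 3 departed from the other arrays of their groups in opposite directions. The part of the scan and of the labels of these 2 arrays in this pattern was not tested.

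In DTG hearts, more members were higher than lower with ISO at the unadjusted threshold, and none passed after adjustment. By limma 0 members passed the adjusted threshold (0% of all probes), and at the unadjusted threshold of 0.05 the count was 32 of 290, with 27 higher in DTG ISO and 5 lower, beside 5.84% of all probes (3.95% higher and 1.89% lower). The count of 32 became 6, 10 and 67 without DTG vehicle 1, 2 and 3, and 16, 19 and 16 without DTG ISO 1, 2 and 3. It was 12 under normexp, 6 higher and 6 lower, where the median over the 290 members was -0.07, and 5 with scan or slide as a block, 2 higher and 3 lower. The arrays of the groups did not overlap in 34 of 288 members (11.8%, beside 13% of all probes). Among the 112 members detected on all arrays, 65 were higher, with a median of 0.06, which became -0.01 under normexp background correction. It was -0.06 with scan as a block or within scan 1, where DTG vehicle 3 was the only vehicle array. With 1 array left out this median lay between 0.03 and 0.12, the highest without DTG vehicle 3.

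The members named as higher were mouselincRNA1318+ and mouselincRNA0665-. mouselincRNA1318+ measured -4.92, -5.57 and -5.82 in DTG vehicle, where it was not well above background, and -4.10, -4.20 and -3.94 in DTG ISO, where it was detected on all 3 arrays. It was at least 1.5-fold higher in DTG ISO, taking the lowest signal well above background as the limit in DTG vehicle (limma adjusted p = 0.817). It was detected on no other array and passed the filter through DTG ISO alone, so its value is a description. mouselincRNA0665- measured -3.00, -3.14 and -1.55 in DTG vehicle and -1.08, -1.44 and -1.10 in DTG ISO, a change of 1.35 (SE 0.38, limma adjusted p = 0.817). DTG vehicle 3, from the same scan as DTG ISO, lay close to them and away from the other vehicle arrays. Without DTG vehicle 3, 8 members passed the adjusted threshold in limma, all 8 higher in DTG ISO, beside 1.78% of all probes, and mouselincRNA0665- was among them with a change of 1.86 and an adjusted p of 0.0192.

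Lower in DTG ISO were mouselincRNA0309- and mouselincRNA0344-. mouselincRNA0309- measured -0.95, -1.22 and -1.13 in DTG vehicle and -1.64, -1.39 and -1.85 in DTG ISO, a change of -0.53 (SE 0.23, limma adjusted p = 0.817). mouselincRNA0344- measured 2.50, 1.95 and 2.13 in DTG vehicle and 1.74, 1.84 and 0.34 in DTG ISO, a change of -0.89 (SE 0.40, limma adjusted p = 0.817). In both, the groups did not overlap, and the limma test was not passed.

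In vehicle-treated hearts, more members were higher than lower in DTG than in TG at the unadjusted threshold, and none passed after adjustment. By limma 0 members passed the adjusted threshold for DTG vehicle against TG vehicle (0.00443% of all probes), and 42 of 290 had an unadjusted p under 0.05, all 42 higher in DTG vehicle, beside 5.22% of all probes (4.09% higher and 1.14% lower). The count fell to 14 without TG vehicle 3, to 17 without DTG vehicle 3 and to 10 under normexp, where the median over the 290 members was -0.03. The arrays did not overlap in 33 of 288 members (11.5%, beside 7.72% of all probes), 32 of them higher in DTG vehicle. Among the 112 members detected on all arrays, 87 (77.7%) were higher in DTG vehicle with a median of 0.27, and the ASMM10P probes of that kind had a median of 0.01. The median of the 112 was 0.08 under normexp, 0.17 with scan as a block and 0.00 within scan 2, where 57 of 112 were higher. Without TG vehicle 3 it was 0.09, with 72 of 112 higher, without DTG vehicle 3 it was 0.23, and without TG vehicle 1 it was 0.43.

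A single member was lower in DTG vehicle without overlap, mouselincRNA1545+, at -3.31, -3.11 and -3.24 in TG vehicle and -4.32, -4.01 and -3.42 in DTG vehicle. It was well above background on 2 of 3 arrays in each group and is named after its values were seen. The named members that were higher were mouselincRNA0544+ and mouselincRNA1400-. mouselincRNA0544+ measured -4.22, -4.37 and -4.29 in TG vehicle, -3.92, -3.80 and -4.19 in TG ISO, -3.17, -3.40 and -2.95 in DTG vehicle, and -3.60, -3.25 and -3.01 in DTG ISO. All 6 DTG arrays were above all 6 TG arrays, and the change with the transgene in vehicle-treated hearts was 1.12 (SE 0.21, limma adjusted p = 0.839). mouselincRNA1400- measured -4.78, -4.53 and -4.10 in TG vehicle and -3.33, -3.95 and -2.52 in DTG vehicle, a change of 1.21 (SE 0.37, limma adjusted p = 0.863). Both were detected on 2 of the 3 TG vehicle arrays and on all 3 DTG vehicle arrays.

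Without a block for scan or slide, the largest of the 4 median shifts was between DTG ISO and TG ISO, which no scan held together. By limma 0 members passed the adjusted threshold (0% of all probes), and at the unadjusted threshold of 0.05 the count was 115 of 290, with 107 higher in DTG ISO and 8 lower, beside 26.8% of all probes (16.8% higher and 9.98% lower). The count was 76 without DTG ISO 1 and 37 under normexp, 20 higher and 17 lower, where the median over the 290 members was -0.02. The arrays did not overlap in 150 of 288 members (52.1%, beside 37.8% of all probes). Among the 112 members detected on all arrays, 79 were higher with a median of 0.44, and the ASMM10P probes of that kind had a median of 0.04. On another measure, the mean of the per-array medians, the 112 members were at -1.40 ± 0.12 (SD, n = 3) in DTG ISO and -1.54 ± 0.16 in TG ISO. That difference was 0.14 (exact permutation test, two-sided p = 0.3). On the same measure, the humanlincRNA probes detected on all 12 arrays were at -1.19 ± 0.08 in DTG ISO and -1.76 ± 0.05 in TG ISO. The probes named ASMM10UP were at -0.81 ± 0.04 and -1.14 ± 0.07. A shift in this direction was thus not particular to the mouse catalogue. The median of the 112 per-probe differences was 0.19 under normexp, and with scan as a block it was 0.07, below the 0.17 of DTG vehicle against TG vehicle in the same fit. With slide as a block the medians were 0.14 and 0.23. In both block fits scan 1 was linked to the other scans through DTG vehicle 3 alone, so the values for DTG ISO rest on that array. With 1 array left out and no block, the median lay between 0.34 and 0.54. It was highest without TG ISO 3, where 83 of 112 were higher. With scan as a block, 5 of 290 members had an unadjusted p under 0.05, beside 1.58% of all probes. In this comparison 54 of 290 members passed the adjusted threshold when the fit held the compared groups alone, where 8.99% of all probes did. Without TG ISO 3, 11 did so, beside 4.15% of all probes, and 10 by the methods' t-test after Benjamini-Hochberg adjustment, beside 2.39%. Without both arrays of scan 3, 101 members did (34.8%, beside 30.6% of all probes, 17.1% higher and 13.5% lower), 92 of them higher. These 101 include members that passed the filter through DTG ISO alone or nearly so, and their direction is then fixed by the filter. The same can hold for members called in the other fits of this comparison. Among the 112 members detected on all arrays, 43 (38.4%) passed in that fit, 36 higher and 7 lower.

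**Figure D5:**
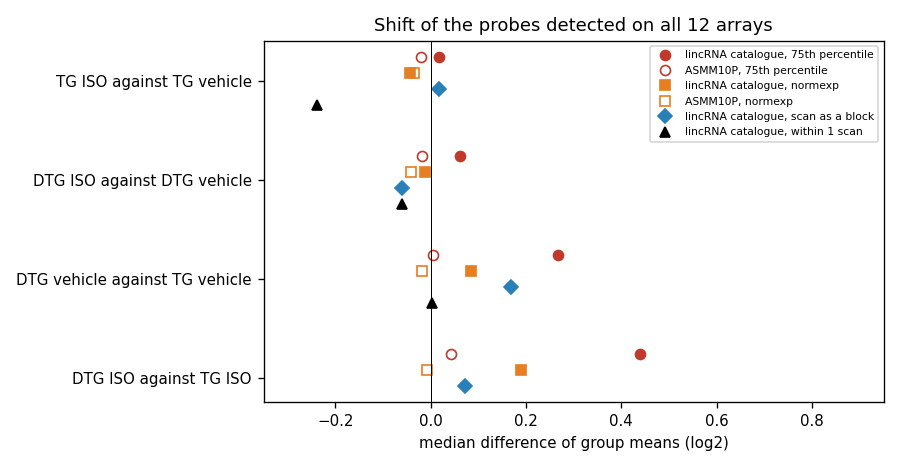
Median difference of group means (horizontal axis, log2) over the 112 lincRNA catalogue probes (filled) and 30536 ASMM10P probes (open) detected on all 12 arrays, for 4 comparisons (vertical axis), scaled to the 75th percentile, after normexp background correction, with scan as a block and within 1 scan. The 0.44 of DTG ISO against TG ISO becomes 0.19 under normexp and 0.07 with scan as a block, and no scan holds both groups.

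The named members that were higher in DTG ISO were not well above background in TG ISO, and mouselincRNA0394- passed the filter through DTG ISO and DTG vehicle 3 alone. mouselincRNA0768- measured -4.79, -5.04 and -5.16 in TG ISO, not well above background, and -3.86, -3.27 and -3.15 in DTG ISO, at least 2.01-fold higher (limma adjusted p = 0.0713). Its plus strand partner, mouselincRNA0768+, was the steadiest of all members detected on every array. mouselincRNA0394- measured -5.14, -5.79 and -6.11 in TG ISO, not well above background, and -4.01, -4.04 and -3.79 in DTG ISO, at least 1.41-fold higher (limma adjusted p = 0.0713). On DTG vehicle 3 it measured -3.98, which was the level of the DTG ISO arrays.

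Lower in DTG ISO were MM9LINCRNAEXON10569- and mouselincRNA0901-, which were detected on all 12 arrays. MM9LINCRNAEXON10569- measured 0.40, -0.33 and 0.63 in TG vehicle, 0.79, 1.15 and 0.23 in TG ISO, 0.19, 0.17 and -0.91 in DTG vehicle, and -0.88, -0.67 and -1.74 in DTG ISO. The 4 arrays of scan 1 were the lowest, and the change between the ISO groups was -1.82 (SE 0.41, limma adjusted p = 0.075). mouselincRNA0901- measured -2.60, -3.19 and -1.95 in TG vehicle, -1.33, -1.06 and -3.08 in TG ISO, -2.83, -3.05 and -3.36 in DTG vehicle, and -3.26, -3.30 and -3.55 in DTG ISO. TG ISO 1 and 2 were its highest arrays and TG vehicle 3 the next, and its change was -1.55 (SE 0.48, limma adjusted p = 0.0997), or -2.17 without TG ISO 3 (limma adjusted p = 0.0495). Without TG ISO 3, MM9LINCRNAEXON10569- also passed the adjusted threshold, with the same adjusted p.

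Where detection separated whole groups, it was toward DTG. A total of 40 members (5.46%) were detected on all 3 DTG ISO arrays and on no TG ISO array, beside 2.74% of ASMM10P probes. The opposite was shown by 0 members, beside 0.0086% of ASMM10P probes. Of the 40, 37 were also detected on DTG vehicle 3, 15 on DTG vehicle 2 and 5 on DTG vehicle 1. The corresponding number was 26 for DTG ISO against TG vehicle (3.55%, beside 1.91% of ASMM10P probes), 5 for DTG vehicle against TG ISO (0.683%, beside 0.306%) 0 for DTG vehicle against TG vehicle (beside 0.103%) and 2 for DTG ISO against DTG vehicle (0.273%, beside 0.263%, a share near the background). No member was detected on all 3 arrays of a TG group and on none of a DTG group. The array of scan 1 that carried the vehicle label thus shared nearly all of this detection.

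The members below were chosen for this detection, so their values are a description. The largest of these differences was that of mouselincRNA0086-. It measured -5.56, -5.48 and -7.11 in TG vehicle, -5.89, -4.60 and -4.71 in TG ISO, -4.51, -5.28 and -2.12 in DTG vehicle, and -0.62, -2.39 and -2.82 in DTG ISO. The 4 arrays of scan 1 were its highest, and it was at least 5.14-fold higher in DTG ISO than in TG vehicle, a pair of groups that was not tested. mouselincRNA1337- measured -5.94, -5.38 and -5.71 in TG ISO, -4.83, -5.65 and -2.36 in DTG vehicle, and -2.44, -2.53 and -2.10 in DTG ISO. It was at least 4.25-fold higher in DTG ISO than in TG ISO (limma adjusted p = 0.072), and DTG vehicle 3 again had the level of DTG ISO. In the same way, DTG ISO was higher than TG ISO by at least 1.68-fold in mouselincRNA0288+ (limma adjusted p = 0.09), 1.69-fold in mouselincRNA1630+ and 1.1-fold in mouselincRNA1453- (both 0.0814). In mouselincRNA0079- it was at least 3.01-fold higher than TG vehicle, which was not tested.

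The response to ISO was also compared between the genotypes. By limma 0 members passed the adjusted threshold for the interaction (0% of all probes), and 18 of 290 had an unadjusted p under 0.05, 15 with a more positive change in DTG and 3 with a more negative one, beside 4.37% of all probes (2.76% and 1.61%). The count of 18 became 37 without TG vehicle 3, 48 without DTG vehicle 3, 10 without DTG vehicle 1 and 9 without DTG ISO 3. Among the 112 members detected on all arrays, the median difference was 0.12, with 63 more positive in DTG. It was 0.35 without TG vehicle 3, 0.21 without TG ISO 3 and 0.43 without both, with 78 of 112 more positive. The median was -0.09 without TG vehicle 1 and -0.07 with scan as a block. Without scan 3, 12 members passed (4.14%, beside 8.94% of all probes), mouselincRNA1231+, mouselincRNA1379-, mouselincRNA0453+ and mouselincRNA0935- among them. In the order given, the difference between the genotypes was 2.14, 1.56, -2.24 and -3.46 on the log2 scale, and the change with ISO in DTG hearts was -0.12, -0.13, -0.30 and 0.27. For mouselincRNA0935-, the last of these, both values are uncertain in size, since it was well above background on 1 of the 3 DTG vehicle arrays and on 1 of the 2 TG vehicle arrays. For mouselincRNA1231+, the 2.14 is uncertain in size too, since it was well above background on 1 of the 2 TG ISO arrays.

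With all arrays, MM9LINCRNAEXON11712- had the smallest p of the interaction. Its TG values are given above, and it measured -3.34, -3.11 and -2.33 in DTG vehicle and -2.19, -1.94 and -1.82 in DTG ISO, so that every ISO array lay below every vehicle array in TG and above every vehicle array in DTG, a pattern of 1 of 288 members beside 0.472% of all probes. The difference between the changes was 1.52 (SE 0.39, limma adjusted p = 0.927). MM9LINCRNAEXON10495-, also with a more positive change in DTG, was detected on all 3 DTG ISO arrays at -4.17, -4.15 and -4.13 and on no TG ISO array, where its signals were -5.65, -5.51 and -6.11. On DTG vehicle 3 it measured -4.15. With a more negative change in DTG, mouselincRNA0133- measured -1.60, -2.33 and -2.23 in TG vehicle, -1.63, -1.32 and -1.29 in TG ISO, -1.09, -1.85 and -1.37 in DTG vehicle, and -2.13, -1.69 and -2.25 in DTG ISO. Its difference between the changes was -1.23 (SE 0.39, limma adjusted p = 0.927), and that of MM9LINCRNAEXON10569- was -1.40 (SE 0.58, limma adjusted p = 0.927).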

How the data were processed

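Total LV RNA was depleted of rRNA and labelled with Cy3 by random priming. The authors deposited, per array, Feature Extraction 11.0.1.1 output with a background-subtracted processed signal (intensity), median spot and background intensity values, and flags for each spot, which are other values. A deposited value table holds log2 values normalized between arrays by a method not given in the sources used here. From these, log2 of the processed signal minus the array's 75th percentile was computed, outlier spots were left out, and each member had 1 spot. limma 3.58.1 (R 4.3.3) fitted 4 group means over 12 arrays, with Benjamini-Hochberg adjustment over all probes well above background on at least 3 arrays. The fit was tested on simulated data. Shares and medians were compared by exact permutation over arrays. The labels call the arrays biological replicates from separate LVs. Scans were read from the file headers. Members and lists were chosen with earlier results of these data known. Named members were the 8 brightest, the 3 with the largest and the 3 with the smallest range among those detected on all arrays, per comparison up to 2 in each direction with the smallest p among members detected on all 3 arrays of a group and without overlap (for the interaction without the overlap condition), 6 detected on all arrays of 1 group and none of another, and the 3 entries with the largest and the 3 with the smallest strand difference among those with a strand detected on all arrays, for which detection alone is reported, since the probes differ. Alternatives were quantile normalization, median scaling, normexp with an offset of 50 on median intensities, the authors' log2 values, other filters, the compared groups alone, blocks for replicate number, scan and slide, fits to single scans, the methods' t-test and each array left out. The number of arrays limits the precision. 0 sample columns were left unused. Figures were drawn with matplotlib 3.10.9.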

Additional observations from a re-analysis of the deposited data

Results flagged for a closer look

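MM9LINCRNAEXON11712- is listed because every TG ISO array lay below every TG vehicle array and every DTG ISO array lay above every DTG vehicle array, with a difference of 1.52 on the log2 scale between the changes. The limma test of that difference gave an adjusted p of 0.927. Such opposite changes were seen in 1 of 288 members, beside 0.472% of all probes tested, and DTG vehicle 3, which shared its scan with DTG ISO, was the vehicle array closest to it. Groups of 3 arrays were too small to test for outlying arrays.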

How the results depend on the processing

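The number of members past the adjusted threshold, 0 in all 5 comparisons, stayed at 0 under normexp, median scaling, quantile normalization, the authors' values, both other filters and the blocks for replicate number, scan and slide. It became 20 for TG ISO against TG vehicle within scan 2 (6.9%, beside 11.5% of all probes) and 28 without TG ISO 3 and TG vehicle 3. For DTG ISO against TG ISO it became 54 in the compared groups alone, 10 by the methods' t-test after Benjamini-Hochberg adjustment (3.46%, beside 2.39% of all probes) and 101 without TG ISO 3 and TG vehicle 3, which gave 12 for the interaction. Leaving out single arrays gave 0 to 8 calls for DTG ISO against DTG vehicle, 0 to 11 for DTG ISO against TG ISO and 0 for the others. The cause was not tested.

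Counts at an unadjusted p under 0.05 moved more. The shares of all probes at this threshold are not set beside the counts in this paragraph. These counts thus show how far each result moved, and not whether the members moved more than the whole array. For TG ISO against TG vehicle, 5 became 11 under quantile normalization, 2 under normexp, 8 with the authors' values, 9 without the filter, 1 with the filter on all 12 arrays, 3 in the compared groups alone, 12 with scan or slide as a block, 69 within scan 2, 1 by the methods' t-test, 68 without TG ISO 3 and TG vehicle 3, and 3 to 32 with 1 array left out. For DTG ISO against DTG vehicle, 32 became 12 under normexp, 14 with the filter on all 12 arrays, 5 with scan or slide as a block, 16 within scan 1, 16 by the methods' t-test, and 6 to 67 with 1 array left out, the highest without DTG vehicle 3. For DTG vehicle against TG vehicle, 42 became 10 under normexp, 13 with the filter on all 12 arrays, 24 in the compared groups alone, 12 with scan and 18 with slide as a block, 17 within scan 2, 9 by the methods' t-test, 19 without TG ISO 3 and TG vehicle 3, and between 14 (without TG vehicle 3) and 55 when single arrays were left out. For DTG ISO against TG ISO, 115 became 37 under normexp, 37 with the filter on all 12 arrays, 5 with scan and 9 with slide as a block, and 76 to 116 with 1 array left out. For the interaction, 18 became 7 under normexp, 28 without the filter, 6 with the filter on all 12 arrays, 73 without TG ISO 3 and TG vehicle 3, and 9 to 48 with 1 array left out. Filters change the number of members tested. Under normexp the medians over the 290 tested members turned negative in the first 4 comparisons, at -0.09, -0.07, -0.03 and -0.02.

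Same-numbered arrays had correlations of deviations from -0.77 to 0.18, so the numbers did not pair the arrays, and the replicate block left 0 adjusted calls and gave 5, 22, 32, 96 and 12 unadjusted ones in the 5 comparisons in the order above. The lower detection share and median level of the members against ASMM10P probes held under every alternative, at -28.2 points with the scanner's other detection flag and -0.88 on the log2 scale under normexp, the smallest differences. Differences between group detection shares with 1 array left out ranged from -3.48 to 2.12 points (TG ISO against TG vehicle), 5.49 to 14.5 (DTG ISO against DTG vehicle), 2.69 to 9.99 (DTG vehicle against TG vehicle) and 12.0 to 21.0 (DTG ISO against TG ISO). Signals near background limit what can be said of members not detected on all arrays.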
